A study of Mus musculus with 13 samples.

Results

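The ribosomal-RNA-like loci Gm42418, Gm26917 and AY036118 and the gene Lars2 were examined in RNA of the mouse melanoma line Yumm1.7. These 4 genes, of 54532 in the count table, were matched by their Ensembl identifiers and chosen by a readout: Gm42418 took a large share of the counts of RNA precipitated with antibodies, and Lars2 was added as another gene known to collect rRNA-like reads. Their shares in the precipitated libraries are therefore given as a description. Of the 4, 3 had counts, and AY036118 had 0 counts in each of the 13 libraries.

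The cells carried the label WT and were treated with DMSO (the solvent control), with ADAR1i-124 (10 μM, 12 h), with 5-Aza-CdR (1 μM, 72 h), or with the 2 compounds together. ADAR1i-124 is an inhibitor of the RNA-editing enzyme ADAR1, and 5-Aza-CdR is an inhibitor of DNA methyltransferases. For each treatment there was 1 library of total RNA, 1 of RNA precipitated with J2 (an antibody to double-stranded RNA, dsRNA) and 1 precipitated with Z22 (an antibody to RNA or DNA in the left-handed Z form). A single library precipitated with a control IgG completed the set, and the treatment of its cells was not stated. For the combination the study's supplement gives the same doses and times in sequence, 5-Aza-CdR first. It also names a lower dose of ADAR1i-124 combined with 5-Aza-CdR, and the labels give no dose for the combination libraries. Before precipitation, DNase and the single-strand-specific RNase I were applied, and all libraries were made with a kit that removes rRNA. With 1 library per condition no difference between single libraries has a replicate check, and only Z22 against J2, paired over the 4 treatments, was tested. Intervals cover counting error only, since the reads carry no molecular identifiers and may repeat molecules. The labelled tissue was checked against 8 melanocyte lineage genes: Mitf was at 20.3 to 33.1 CPM (counts per 1000000 counted reads) in total RNA, and the other 7 were under 1 CPM in each total RNA library. Of 6 markers of other cells, Cd3e, of T cells, and Epcam, of epithelia, were under 1 CPM in these 3 libraries. Lyz2, of myeloid cells, reached 2.43 CPM, Pecam1, of endothelium, 1.59 CPM and Ptprc, of leukocytes, 1.21 CPM, all with 5-Aza-CdR. With DMSO they were at 0, 0.353 and 0 CPM. Col1a1, a collagen gene, was at 3.88 CPM with DMSO, 3.58 CPM with ADAR1i-124 and 44.0 CPM with 5-Aza-CdR.

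Ribosomal RNA is made in the nucleolus by RNA polymerase I as a long precursor in which the 18S, 5.8S and 28S rRNAs are separated by transcribed spacers. An external spacer precedes the 18S rRNA and an internal spacer follows it, and both are cut off and degraded while the ribosome is assembled. Mature rRNA folds back on itself into many paired stems and makes up most of the RNA of a cell, which is why sequencing protocols remove it. The repeated rRNA genes are mostly missing from genome assemblies, but single copies and fragments elsewhere carry gene names and can gather reads of rRNA or of its precursor.

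In build GRCm38, 3 of the 4 genes share a single site. Gm26917 (ENSMUSG00000097971, annotated as lincRNA) lies on the plus strand at chr17:39843013-39846341. Gm42418 (ENSMUSG00000098178, lincRNA, a single exon of 1831 bases) follows on the same strand at chr17:39846958-39848788. Between and beneath them RefSeq places Rn18s-rs5, a related sequence of the 18S rRNA gene, at chr17:39846354-39848202, which is 1849 bases long. Gm26917 ends 12 bases before this 18S copy, in the place of the external spacer. Gm42418 covers the last 1245 bases of the 18S copy and a further 586 bases past its end, in the place of the internal spacer. The first 604 bases of the 18S copy lie outside both genes. Both spacer places are read from position alone, and matches to the full rRNA repeat were not analysed here. On the minus strand, CT010467.1, annotated as rRNA, runs opposite the 18S copy at chr17:39846353-39848827. AY036118 (ENSMUSG00000105361, lincRNA, 923 bases) lies at chr17:39847113-39848035, also on the minus strand, and all of its 923 bases fall inside an exon of CT010467.1.

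**Figure D1:**
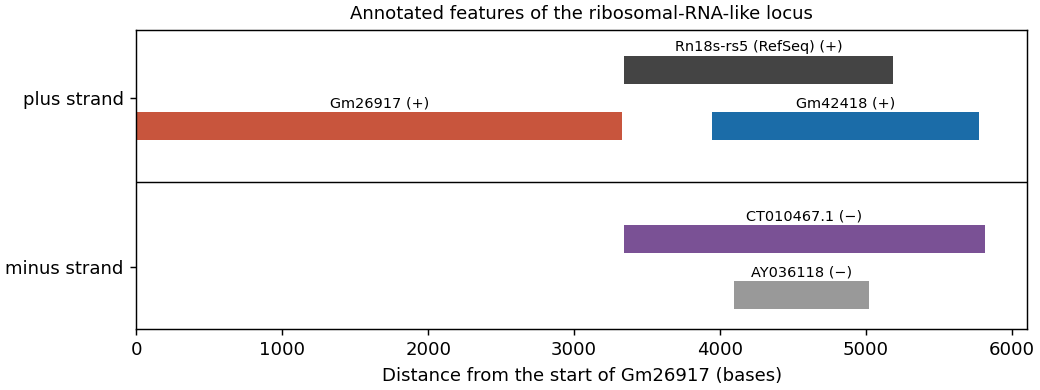
Annotated genes of the locus by distance in bases from the start of Gm26917, with the plus strand above the line and the minus strand below it. Bars are drawn to scale from first to last base: Gm42418 overlaps the 3′ part of the 18S copy Rn18s-rs5, and AY036118 lies within CT010467.1.

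The boundary inside Gm42418 is shown because it is where an rRNA copy passes into spacer within 1 annotated gene. The stretch chr17:39848143-39848262, plus strand, reads 5′ to 3′ as follows, with the last 60 bases of the 18S copy in capitals.
Gm42418: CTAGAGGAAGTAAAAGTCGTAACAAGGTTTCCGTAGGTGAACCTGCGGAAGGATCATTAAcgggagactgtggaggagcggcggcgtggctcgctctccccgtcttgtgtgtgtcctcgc
The gene has near copies elsewhere. At 95% identity over at least 150 bases, 2 further chromosomal matches were found, with 1 chromosome left out of this count. The longer lies at chr6:3201047-3201677 with 97.5% identity over 631 bases. Reads from such copies and from the absent rRNA repeats cannot be told apart from reads of the chromosome 17 gene.

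Gm26917 has a different composition. The window of 100 bases with the most CG steps, chr17:39844250-39844349, plus strand, is shown with these steps in capitals.
Gm26917: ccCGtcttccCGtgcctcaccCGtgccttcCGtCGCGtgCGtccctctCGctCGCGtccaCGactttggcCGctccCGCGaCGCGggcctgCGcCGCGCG
G and C made up 69.1% of the 3329 bases of Gm26917 and 60.2% of Gm42418, against a median of 48.7% over the longest transcripts of all genes averaging 1 CPM or more. Of those genes, 99.9% had a lower G and C content than Gm26917 and 97.0% a lower one than Gm42418. No match of Gm26917 at 95% identity over 150 bases was found outside its own place, and 1 chromosome was left out of this count.

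Lars2 (ENSMUSG00000035202) encodes the leucyl-tRNA synthetase of mitochondria, which charges leucine onto its tRNA for translation inside the organelle. It spans chr9:123366927-123462666 on the plus strand, and it is the one protein-coding gene of the 4. Positions 3022 to 3419 of its longest transcript, of 3894 bases, hold repeated sequence with matches at 95% identity over at least 150 bases on 3 other chromosomes. One of them, chr16:35981655-35981821, shares 97.6% of 167 bases and lies inside the noncoding gene Gm15564. From the longest identical stretch, of 77 bases, the first 30 are shown to locate the shared part. They lie in the 3′ untranslated region at chr9:123462023-123462052, plus strand.
Lars2: cggctcttcctatcattgtgaagcagaatt

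Gm42418 was the most abundant gene of each of the 9 libraries made with an antibody, the IgG control included. Its share of counts was 18.9% in J2 DMSO, 16.1% in J2 ADAR1i-124, 17.4% in J2 5-Aza-CdR and 15.8% in J2 combination. In the Z22 libraries it was 34.9% in Z22 DMSO (Wilson 95% interval 34.8% to 34.9%), 14.6% in Z22 ADAR1i-124, 10.6% in Z22 5-Aza-CdR and 15.8% in Z22 combination. It was 14.2% in the IgG library. The J2 libraries lay close together just above IgG, while the Z22 libraries lay on both sides of it and Z22 DMSO stood far above the rest. In total RNA the share was 0.334% with DMSO, 0.284% with ADAR1i-124 and 0.0299% with 5-Aza-CdR, below each library made with an antibody. The gene was chosen for its precipitated share, and how many of all genes show such a gap was not counted. These are shares of the counted RNA of whole cultures, in which fewer cells with an RNA and less RNA per cell cannot be told apart. Without the Z22 DMSO library the highest share was 18.9%, in J2 DMSO.

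Gm26917 followed another order. In total RNA its share was 0.178% with DMSO, 2.45% with ADAR1i-124 and 0.835% with 5-Aza-CdR. It was the most abundant of all genes in the total RNA of ADAR1i-124-treated cells and the third most abundant in that of 5-Aza-CdR-treated cells. Its share was 0.346% in J2 DMSO, 0.316% in J2 ADAR1i-124, 0.276% in J2 5-Aza-CdR and 0.588% in J2 combination. It was 1.68% in Z22 DMSO, 0.755% in Z22 ADAR1i-124, 0.255% in Z22 5-Aza-CdR and 1.27% in Z22 combination, and 0.148% in IgG. With library totals the IgG library held the lowest value of the 12. With TMM factors it lay 0.10 above total RNA with DMSO on the log2 scale, and with size factors 0.16 above it. The total RNA value with DMSO lay below all 8 precipitated libraries, that with ADAR1i-124 above them and that with 5-Aza-CdR among them.

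Lars2, like Gm42418, was lowest in total RNA, but its order among the other libraries differed. Its share in total RNA was 0.0331% with DMSO, 0.00471% with ADAR1i-124 and 0.00203% with 5-Aza-CdR. It was 0.767% in J2 DMSO, 0.372% in J2 ADAR1i-124, 0.837% in J2 5-Aza-CdR and 0.408% in J2 combination. It was 2.54% in Z22 DMSO, 0.713% in Z22 ADAR1i-124, 0.465% in Z22 5-Aza-CdR, 0.675% in Z22 combination and 0.997% in IgG. Each library made with an antibody lay above all 3 total RNA libraries, and IgG lay above all but Z22 DMSO. How many of all genes show the first of these orders was not counted.

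**Figure D2:**
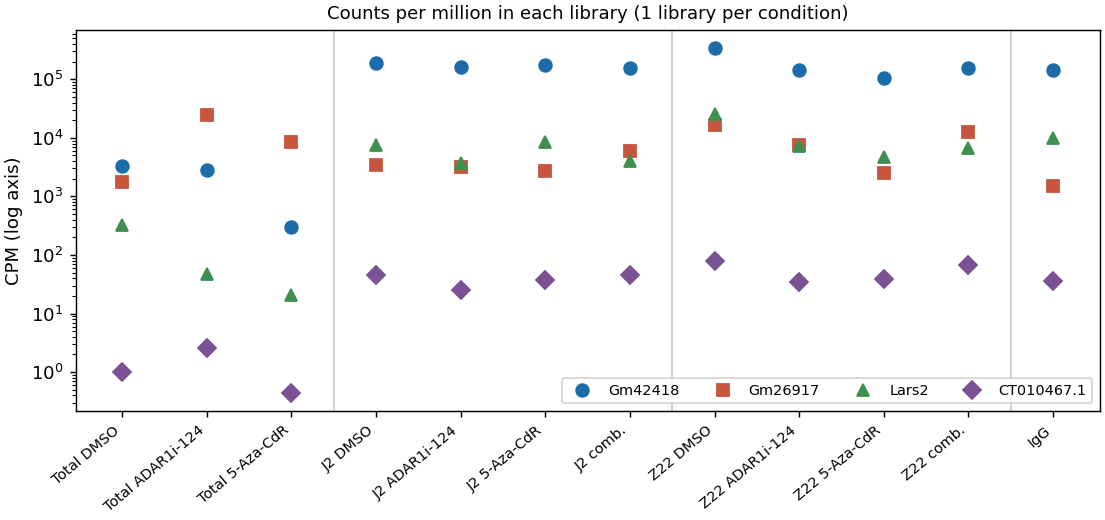
CPM of Gm42418, Gm26917, Lars2 and the minus-strand gene CT010467.1 on a log axis, with 1 point per library, 1 library per condition and no error bars. Gm42418 lies between 299 and 3341 CPM in total RNA and at 105736 CPM or more in the J2, Z22 and IgG libraries, while Gm26917 does not separate these groups.

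The 4 genes together took 0.545% to 2.74% of the counts in total RNA, 15.4% in IgG, 16.8% to 20.02% in the J2 libraries and 11.3% to 39.1% in the Z22 libraries. Gm42418 made up 89.0% to 95.9% of that sum in the 9 antibody libraries, but 61.3%, 10.4% and 3.44% of it in total RNA with DMSO, ADAR1i-124 and 5-Aza-CdR. Although the 2 plus-strand genes of the locus are 616 bases apart, their counts were not in a fixed proportion. Per 100 counts of Gm42418 there was 1.04 of Gm26917 in IgG, 1.58 to 3.73 in the J2 libraries and 2.42 to 8.02 in the Z22 libraries. In total RNA it was 53.2 in the DMSO library, 862 in that of ADAR1i-124 and 2796 in that of 5-Aza-CdR. The proportion of Lars2 to Gm42418 was narrower, from 1.66 to 9.92 per 100 over the 12 libraries.

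Per kb of exon the order of the genes also changed with the library. In total RNA of DMSO-treated cells Gm42418 was at 1825 CPM per kb, Gm26917 at 534 and Lars2 at 29.9. In the IgG library these levels were 77798, 444 and 899 CPM per kb. Gm42418 was the highest of the 3 in both, and Gm26917 and Lars2 changed places.

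On the minus strand AY036118 had no count in any library. CT010467.1, whose exon contains it, had counts in each library: 0.434 to 2.61 CPM in total RNA, 25.2 to 44.8 CPM in J2, 35.1 to 77.7 CPM in Z22 and 35.7 CPM in IgG. Relative to Gm42418 on the opposite strand these are 15.6 to 145 counts per 100000. How the counting treated reads that lie on more than 1 gene was not given in the sources used here, so counts of AY036118 and CT010467.1 cannot be told apart and the count of 0 sets no limit on the level of AY036118. Of the 354 genes annotated as rRNA, CT010467.1 alone reached 10 CPM in any of the 12 libraries, and the next highest stood at 1.45 CPM.

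The comparison with the IgG library asks what J2 and Z22 retained beyond RNA held by the control antibody. Differences are given in log2(CPM + 0.5), and a value at least 2-fold from IgG is counted as past the line. Gm42418 was 0.41 above IgG in J2 DMSO, 0.18 in J2 ADAR1i-124, 0.29 in J2 5-Aza-CdR and 0.15 in J2 combination. It was 1.29 above IgG in Z22 DMSO, 0.04 above it in Z22 ADAR1i-124, -0.43 in Z22 5-Aza-CdR and 0.15 in Z22 combination. The gene that dominates these libraries was thus past the line in 1 of 8, Z22 DMSO, where it was 2.45-fold higher. Its signs in J2 combination and Z22 ADAR1i-124 turn negative with scaling by TMM or by size factors.

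Gm26917, in the place of the external spacer, was above IgG in 8 of 8 libraries and past the line in 6. In those 6, the share of all genes at least 2-fold higher was 13.5% in J2 DMSO, 5.63% in J2 ADAR1i-124, 17.9% in J2 combination, 11.3% in Z22 DMSO, 7.15% in Z22 ADAR1i-124 and 17.0% in Z22 combination. Its difference was 1.23 in J2 DMSO, 1.10 in J2 ADAR1i-124, 0.90 in J2 5-Aza-CdR and 1.99 in J2 combination. It was 3.50 in Z22 DMSO, 2.35 in Z22 ADAR1i-124, 0.79 in Z22 5-Aza-CdR and 3.10 in Z22 combination. The largest is an 11.3-fold difference, and both antibodies gave their lowest value with 5-Aza-CdR.

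Lars2 was below IgG in 7 of 8 libraries. The differences were -0.38, -1.42, -0.25 and -1.29 in the J2 libraries of DMSO, ADAR1i-124, 5-Aza-CdR and both compounds. In Z22 they were 1.35, -0.48, -1.10 and -0.56 in the same order. Z22 DMSO was the exception, as for Gm42418, and 3 of the other 7 were at least 2-fold below IgG. Of all genes, 4.46% were that low in J2 ADAR1i-124, 7.98% in J2 combination and 5.13% in Z22 5-Aza-CdR.

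**Figure D3:**
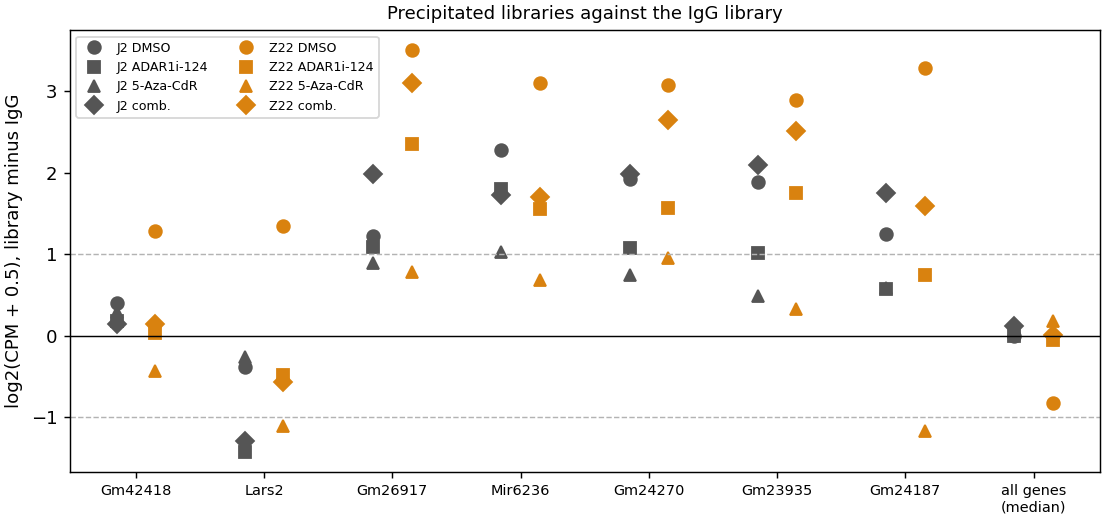
Difference from the IgG library in log2(CPM + 0.5) for each gene, 1 point per precipitated library, J2 in grey and Z22 in orange, with the median of all genes at the right and dashed lines at 2-fold. Gm26917 and the 4 short genes lie mostly above the upper line, Gm42418 lies near 0 except in Z22 DMSO, and Lars2 lies mostly below 0.

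Taking the 3 genes with counts, 11 of 24 values were past 2-fold in either direction. Among all genes averaging 1 CPM or more in the pair of libraries, the same line was passed by 22.4% in J2 DMSO, 10.1% in J2 ADAR1i-124, 18.6% in J2 5-Aza-CdR and 25.9% in J2 combination. It was passed by 56.7% in Z22 DMSO, 9.00% in Z22 ADAR1i-124, 26.5% in Z22 5-Aza-CdR and 27.8% in Z22 combination. In Z22 DMSO 45.4% were lower and 11.3% higher. There all 3 genes were higher, Gm42418 above 92.1%, Gm26917 above 99.7% and Lars2 above 92.7% of all genes. In Z22 DMSO the median of all genes lay 0.83 below IgG, against -0.05 to 0.18 in the other 7. With the 4 genes left out of the totals it lay 0.40 below.

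Against total RNA of the same treatment the picture is different. Of all genes, 761 of 13696 were at least 2-fold higher in J2 than in total RNA with DMSO, and 872 of 13192 in Z22. For IgG against total RNA with DMSO it was 398 of 13224. The medians were -0.36, -1.18 and -0.40 on the log2 scale. With either single compound the medians of J2 and Z22 lay between -0.37 and -0.20. Gm42418 was 56.6-fold higher in J2 and 104-fold higher in Z22 than in total RNA with DMSO, and IgG itself was 42.6-fold higher. With ADAR1i-124 the folds were 56.8 in J2 and 51.4 in Z22, and with 5-Aza-CdR they were 583 and 354. Lars2 was 23.2-fold higher in J2, 76.5-fold higher in Z22 and 30.1-fold higher in IgG than in total RNA with DMSO. Gm26917 was 1.95-fold higher in J2 and 9.45-fold higher in Z22 than in total RNA with DMSO, but with ADAR1i-124 it was 7.75-fold lower in J2 and 3.24-fold lower in Z22, and with 5-Aza-CdR 3.03-fold and 3.27-fold lower. The excess of Gm42418 and Lars2 over total RNA was thus also present in a library made without an antibody to dsRNA. The excess of Gm26917 over IgG went with values below total RNA in treated cells. RNase digestion preceded precipitation and was not stated for total RNA, and the part of this step was not tested.

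Z22 against J2 at the same treatment compares both antibodies directly. Gm42418 differed by 0.88 under DMSO, by -0.15 under ADAR1i-124, by -0.72 under 5-Aza-CdR and by 0.00 under both compounds. Lars2 differed by 1.72, 0.94, -0.85 and 0.73 in the same order. Gm26917 differed by 2.28, 1.26, -0.11 and 1.11. All 3 genes were lower in Z22 than in J2 with 5-Aza-CdR, and Gm26917 and Lars2 were higher in Z22 with the other 3 treatments. The medians of all genes were -0.80, -0.004, 0.13 and -0.10 in the same order, with a mean of -0.20. Under DMSO 5704 of 13122 genes were at least 2-fold lower in Z22 and 656 at least 2-fold higher. Paired over the 4 treatments, the mean difference was 0.0048 ± 0.66 (SD, n = 4 pairs) for Gm42418, 1.13 ± 0.98 for Gm26917 and 0.64 ± 1.08 for Lars2. An exact two-sided permutation test that flips the sign of each pair gave p = 0.875, 0.25 and 0.375 in this order, and 0.875, 0.5625 and 0.5625 with Benjamini-Hochberg adjustment over the 3 genes. With 4 pairs the smallest p of this exact test is 0.125, so the design could not reach 0.05. Without the DMSO pair the means were -0.29, 0.75 and 0.27. The 4 pairs are different treatments, so their spread holds treatment as well as sampling.

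The treatments were compared with DMSO within each kind of library. In total RNA, Gm26917 was 13.8-fold higher with ADAR1i-124 and 4.70-fold higher with 5-Aza-CdR, from 0.178% of counts. Gm42418, which follows it on the same strand, was 0.23 lower on the log2 scale with ADAR1i-124 and 11.2-fold lower with 5-Aza-CdR. Lars2 was 7.03-fold lower with ADAR1i-124 and 16.3-fold lower with 5-Aza-CdR. With 5-Aza-CdR, Gm26917 was thus past 2-fold upward and Gm42418 and Lars2 past it downward. With ADAR1i-124 the difference of Gm42418 did not pass 2-fold, and Gm26917 and Lars2 lay on opposite sides. Of all genes, 16.4% were past 2-fold with ADAR1i-124 and 26.0% with 5-Aza-CdR, and the medians were -0.09 and 0.06. At least 2-fold higher were 7.71% and 17.0%, and at least 2-fold lower 8.70% and 8.96%.

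Among the J2 libraries Gm42418 differed little, and Gm26917 and Lars2 differed more. Gm42418 was 0.23 lower than in J2 DMSO under ADAR1i-124, 0.12 lower under 5-Aza-CdR and 0.26 lower under both compounds. Gm26917 differed by -0.13, -0.33 and 0.76 in this order, and Lars2 by -1.04, 0.13 and -0.91. Only Lars2 with ADAR1i-124 was past 2-fold among these 9 values, in a comparison where 10.8% of all genes were at least 2-fold lower. Past the line in either direction were 18.2% of all genes under ADAR1i-124, 14.6% under 5-Aza-CdR and 12.1% under both compounds.

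In the Z22 libraries all 9 values lay below Z22 DMSO. Gm42418 was 2.39-fold lower under ADAR1i-124, 3.30-fold lower under 5-Aza-CdR and 2.21-fold lower under both compounds. Gm26917 was 2.22-fold, 6.57-fold and 1.32-fold lower, and Lars2 3.55-fold, 5.45-fold and 3.76-fold lower. Past 2-fold were 8 of the 9, but so were 48.0% of all genes under ADAR1i-124, 56.2% under 5-Aza-CdR and 48.5% under both compounds, mostly in the other direction: 5.13%, 4.10% and 5.03% were at least 2-fold lower. The medians of all genes were 0.81, 1.06 and 0.82 above Z22 DMSO. These values rest on scaling by library totals. With TMM factors the median under 5-Aza-CdR was 0.17 and with size factors 0.072, and Gm42418, at -1.72 with totals, was then at -2.69 and -2.79. All 9 values rest on the Z22 DMSO library, in which 34.9% of the counts were of 1 gene. Against IgG in its place the Z22 values with treatment lay on both sides, from -1.10 for Lars2 to 3.10 for Gm26917.

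**Figure D4:**
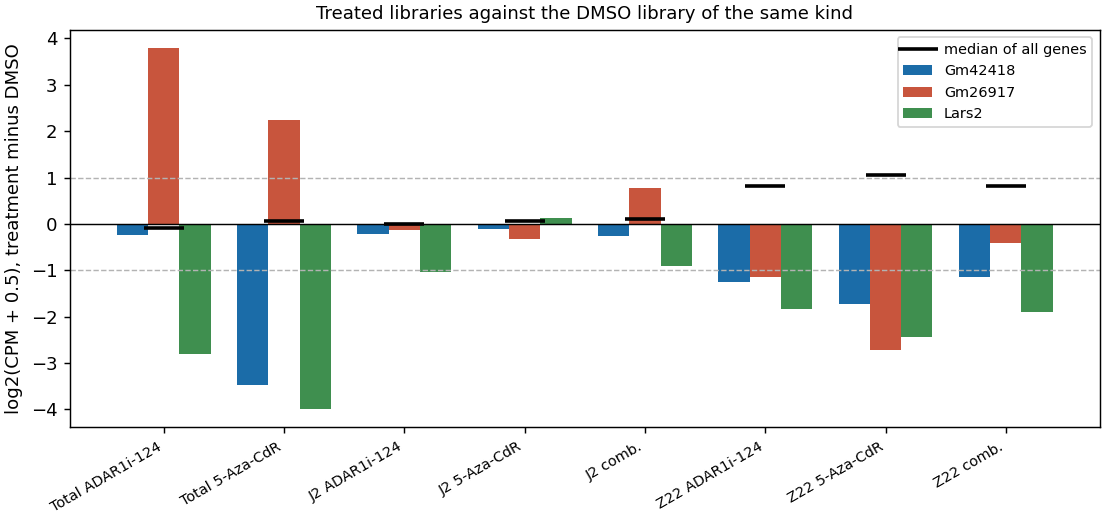
Difference of each treated library from the DMSO library of the same kind in log2(CPM + 0.5), as bars for Gm42418, Gm26917 and Lars2, with the median of all genes as a black line and dashed lines at 2-fold. In total RNA Gm26917 lies above DMSO and the other 2 genes below it, and in Z22 the 3 genes lie below DMSO while the median of all genes, scaled by library totals, lies 0.81 to 1.06 above it.

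Over the 8 comparisons with DMSO, 14 of 24 values were past 2-fold, of which 8 were in Z22. The shares of all genes past the line were 16.4% and 26.0% in total RNA, 12.1% to 18.2% in J2 and 48.0% to 56.2% in Z22. The combination was also set beside the single compounds. Gm26917 was 2.13-fold higher in J2 combination than in J2 5-Aza-CdR and 4.96-fold higher in Z22 combination than in Z22 5-Aza-CdR. In these comparisons 1.44% and 2.28% of all genes were at least 2-fold higher. Against ADAR1i-124 alone it was 1.86-fold higher in J2 and 1.68-fold higher in Z22. Gm42418 differed by -0.03 and -0.14 in J2 and by 0.11 and 0.58 in Z22 from ADAR1i-124 and 5-Aza-CdR. Lars2 was 2.05-fold lower in J2 combination than in J2 5-Aza-CdR, where 0.641% of all genes were at least 2-fold lower, and differed by 0.54 in Z22. From ADAR1i-124 alone Lars2 differed by 0.13 in J2 and by -0.08 in Z22. In either direction 2.08% of all genes passed the line in J2 and 9.40% in Z22 against 5-Aza-CdR. The counting interval of each log2 difference given for the 3 genes reached at most 0.15 to either side.

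Base composition moved with some of these differences. Among the 10% of genes with the highest G and C content of their longest transcript (at least 57.3%), which includes Gm42418 and Gm26917, the median in total RNA was 0.47 above DMSO with ADAR1i-124 and 0.72 with 5-Aza-CdR, against -0.10 and 0.04 over all genes with a known content. Gm26917, at 3.79 and 2.23, lay beyond both medians, and Gm42418, in the same group, lay below DMSO. In Z22 DMSO against IgG the median of that group was 0.42, against -0.84 over all genes, and in J2 DMSO it was 0.15, against -0.01. Treated Z22 libraries stood 0.05, 0.13 and 0.32 above Z22 DMSO in that group with ADAR1i-124, 5-Aza-CdR and the combination, against 0.82, 1.07 and 0.83 over all genes. This comparison was added after the values were seen, and the part of base composition in the values of the 4 genes was not tested.

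Genes with a pattern most like Gm42418 were sought by Pearson's r of log2(CPM + 0.5) over the 12 libraries, which differ in kind and depth, among 8888 genes averaging 10 CPM or more. The 8 highest were Mir6236 (r = 0.99), Gm24270 (0.98), CT010467.1 (0.97), Lars2 (0.97), Gm23935 (0.97), Gm24187 (0.96), Psmd4 (0.96) and Llph (0.95). At 95% identity over 150 bases no match of Lars2 to the locus on chromosome 17 was found, and Gm26917, from the same locus, had an r of -0.17. Psmd4, a subunit of the proteasome, varied by 0.80 on the log2 scale against 10.19 for Gm42418, and Llph by 2.33, so their likeness is one of order more than of size. The correlations share the step from total RNA to antibody libraries.

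Mir6236 and the 3 genes Gm24270, Gm23935 and Gm24187 are short genes annotated as miRNA. The latter 3 are printed to compare them, with capitals where a base differs from Gm23935. Gm23935 lies at chr16:11144125-11144181 (plus strand), Gm24270 at chr9:56223715-56223771 (minus strand) and Gm24187 at chr13:9834469-9834525 (minus strand).
Gm23935: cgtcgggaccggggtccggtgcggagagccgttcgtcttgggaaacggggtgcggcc
Gm24270: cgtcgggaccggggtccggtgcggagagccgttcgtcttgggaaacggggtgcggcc
Gm24187: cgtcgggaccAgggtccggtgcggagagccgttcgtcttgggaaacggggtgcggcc
Gm24270 is identical to Gm23935 over the 57 bases and Gm24187 differs by G11A, counted from 1 at the 5′ end, so the split of counts between them is uncertain. Sequence matches of these genes to the full rRNA were likewise not analysed here.

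These short genes stood further above IgG than Gm42418, which was above it in 7 of 8 libraries but past 2-fold in 1. Mir6236 was at 663 CPM in IgG, 1360 to 3239 CPM in J2 and 1064 to 5712 CPM in Z22, above IgG in 8 of 8 libraries and past 2-fold in 7. The shares of all genes at least 2-fold higher are those given beside Gm26917, with 13.0% in J2 5-Aza-CdR and 21.4% in Z22 5-Aza-CdR. Gm23935 was at 852 CPM in IgG, 1194 to 3653 CPM in J2 and 1070 to 6334 CPM in Z22, and Gm24270 was at 383 CPM in IgG, 645 to 1517 CPM in J2 and 742 to 3234 CPM in Z22. Both were above IgG in 8 of 8 and past 2-fold in 6. Gm24187 was above IgG in 7 of 8 and past 2-fold in 4, and in Z22 5-Aza-CdR it was 1.17 below. In total RNA none of the 4 exceeded 14.4 CPM. They stood highest over IgG in Z22 DMSO, by 2.89 to 3.29 on the log2 scale. Since they were picked for likeness to Gm42418, which is also highest there, this shared peak is favoured by the choice.

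The other rRNAs of the cell serve as a comparison. The mitochondrial rRNAs mt-Rnr1 (12S) and mt-Rnr2 (16S) are made in the organelle and are also targets of rRNA removal. Like Gm42418 they were low in total RNA, at 583 to 1629 CPM for mt-Rnr1 and 370 to 998 CPM for mt-Rnr2. In IgG they were at 14827 and 39231 CPM. In J2 mt-Rnr2 was at 41828 to 45798 CPM, 0.09 to 0.22 above IgG on the log2 scale, and in Z22 it was at 8341 to 37422 CPM. The other, mt-Rnr1, was at 11786 to 14849 CPM in J2, -0.33 to 0.00 from IgG and above it in 1 of 4 libraries, and at 6517 to 13480 CPM in Z22, below IgG in all 4. The lowest Z22 value of mt-Rnr2 was in the DMSO library, where Gm42418 had its highest. Rn7sk, the 7SK RNA that holds the elongation factor P-TEFb inactive, was also lowest in Z22 DMSO, at 630 CPM against 4777 CPM in IgG. The signal recognition particle RNA genes Rn7s1 and Rn7s2 were at 57.0 and 104 CPM in IgG and lower in each of the 8 precipitated libraries, at 3.90 to 47.8 CPM and 8.94 to 75.7 CPM.

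Lars2 was set beside the 16 other mitochondrial aminoacyl-tRNA synthetases in the table, per kb of exon. Their median was 3.09 CPM per kb in total RNA with DMSO, 2.804 with ADAR1i-124 and 2.23 with 5-Aza-CdR, and Lars2 was at 29.9, 4.25 and 1.83. With 5-Aza-CdR it thus stood below the median of its family per kb, above 7 of the 16. The length used covers all annotated exons of Lars2, 11089 bases. In CPM not divided by length Lars2 stood above the family's median in that library, at 20.3 against 13.0 CPM, so this order depends on the length. In the 9 antibody libraries it was 148-fold to 1601-fold above the family's median and above each of the 16. The family's own median level stayed between 6.70 and 15.2 CPM in these libraries, and in the comparisons with IgG its median difference ran from -0.38 to 0.12 in 7 libraries and was -1.26 in Z22 DMSO. Of the 167 bases of the copy of the Lars2 segment inside Gm15564, 71 lie in an annotated exon of that gene and the rest in introns. Gm15564 was at 222 CPM in IgG, 9.38 to 155 CPM in J2 and 41.1 to 570 CPM in Z22. It was below IgG in 7 of 8 libraries and above it in Z22 DMSO, as Lars2 was. Per 100 counts of Lars2 there were 0.252 to 2.66 of Gm15564.

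**Figure D5:**
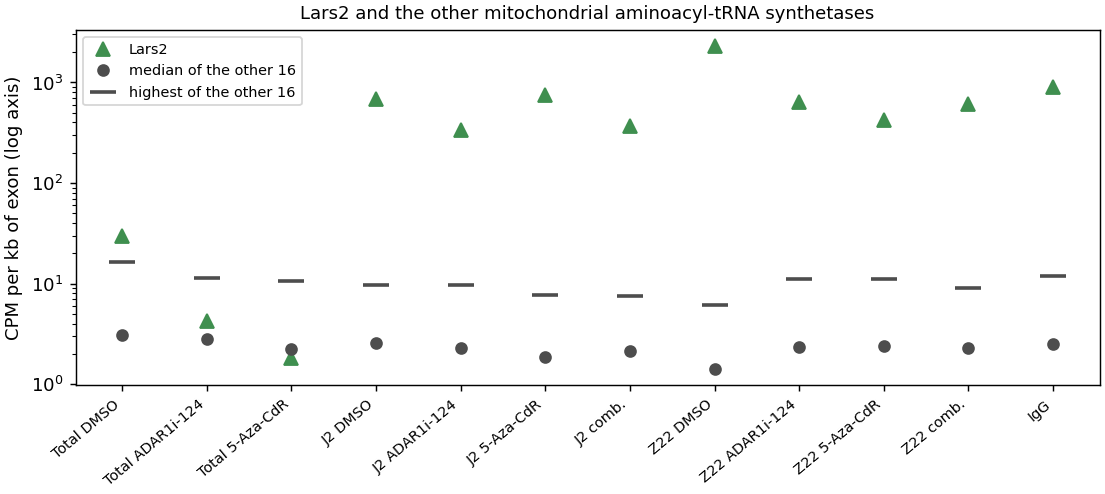
CPM per kb of exon, on a log axis, of Lars2 and of the 16 other mitochondrial aminoacyl-tRNA synthetases in each library, as the median and the highest of the 16, with 1 library per condition. Lars2 lies near its family in total RNA of treated cells and far above it in each J2, Z22 and IgG library.

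The proteins that make and process rRNA precursors were listed to set the locus beside its own pathway. Of 15 measured genes for transcription by RNA polymerase I, 1 was past 2-fold in total RNA with ADAR1i-124: Taf1c, of the promoter selectivity factor, was 1.68 higher on the log2 scale, at 2.997 CPM with DMSO and 10.7 CPM with ADAR1i-124. Of all genes 7.71% were at least 2-fold higher. With 5-Aza-CdR 1 of the 15 was past 2-fold: Polr1b, a large subunit of the polymerase, was 1.31 lower, beside 8.96% of all genes at least 2-fold lower. Of 33 measured pre-rRNA processing genes, none was past 2-fold in total RNA with ADAR1i-124, where Gm26917 was highest. The share of all genes past it there in either direction was 16.4%. With 5-Aza-CdR 18 of the 33 were at least 2-fold lower, beside the same 8.96% of all genes, and none higher, with a median of -1.02 against 0.06 over all genes. Dkc1, the pseudouridine synthase dyskerin, was 2.12 lower, Wdr12, of the PeBoW complex, 1.89 lower, and Utp20, of the small subunit processome, 1.86 lower. These genes were measured as messenger RNA, and nothing in the table measures rRNA synthesis itself. In total RNA with 5-Aza-CdR the markers Col1a1, Lyz2, Pecam1 and Ptprc were also at their highest, Col1a1 at 3.35 above DMSO. A link between these markers and the processing genes was not tested.

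Against IgG the medians of the 33 processing genes ran from -0.68 in J2 DMSO to 0.20 in J2 ADAR1i-124, and those of the 15 polymerase I genes from -1.18 in Z22 DMSO to 0.21 in J2 ADAR1i-124. The 10 measured rRNA-like and satellite-like genes are CT010467.1, Gm15564 and 8 satellite-like genes, several of which were measured only through their level in libraries with 5-Aza-CdR. Over J2 DMSO and IgG 4 of the 10 averaged at least 1 CPM, and 2 of these, Gm10800 and Gm26870, were at least 2-fold above IgG, beside 13.5% of all genes. Over J2 5-Aza-CdR and IgG all 10 did, but 6 of the 8 satellite-like genes passed only through their J2 level, so no count is read from them. Gm26870, a satellite-like gene, was at 4.63 CPM in IgG, 29.4 to 1987 CPM in J2 and 11.3 to 752 CPM in Z22, and its J2 value was highest with 5-Aza-CdR, where Gm42418 was 0.12 below J2 DMSO. Gm10800 was at 1.44 CPM in IgG, and in J2 at 2183 CPM with 5-Aza-CdR and 1082 CPM with both compounds, against 6.73 CPM with DMSO and 7.09 CPM under ADAR1i-124. In Z22 Gm10800 was at 63.1, 264, 0.458 and 1.02 CPM in the same order. The other 6 satellite-like genes, Gm10801, Gm11168, Gm10722, Gm10718, Gm10717 and Gm10719, were at 0 to 0.131 CPM in IgG and at 8.05 to 255 CPM in J2 5-Aza-CdR. They entered that comparison through this J2 level, and in J2 DMSO they were at 0 to 1.64 CPM.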

How the data were processed

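The authors mapped paired 150-base reads with STAR in snakePipes to the mouse genome (GRCm38, mm10 per the labels) and deposited raw counts per gene, whole numbers without normalization, for 13 libraries. The counting tool, its strand setting and its treatment of reads with several places are not given in the sources used here. Total counts were 17015425 to 34571822 in 3 total RNA libraries, 8167960 to 14663357 in the J2 and Z22 libraries and 15324595 in IgG. The combination library of total RNA (1245894 counts) was outside the choice of libraries and left out, leaving 12.

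Identifiers without version were matched to GENCODE M21, which named 54495 of 54532 genes. Counts were divided by the library total, and log2 was taken after adding 0.5 CPM, which understates changes of low genes. A gene entered a comparison at a mean of at least 1 CPM over its 2 libraries. Shares have Wilson intervals at 95%. Since each condition has 1 library, the only test was an exact permutation test of Z22 against J2 paired over 4 treatments, added after the values were seen. Copies were searched with BLAST on GRCm38 chromosomes, with 1 chromosome left out of the counts of matches. Named were all 4 genes, the 8 genes most like Gm42418, genes within 10 kb, rRNA-type genes, measured genes of the rRNA-like and noncoding lists and at most 3 of any other list. The 4 genes and all lists were chosen with earlier results of these data known. The calculation of folds was tested on simulated data. Alternatives were totals without the 4 genes, without the 20 most abundant genes or over protein-coding genes, edgeR 4.0.16 TMM factors and DESeq2 1.42.0 size factors (R 4.3.3), pseudocounts of 0.1 and 2 CPM, a 4-fold line, and other filters. Python 3.11.15 was used for the rest.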

Additional observations from a re-analysis of the deposited data

Results flagged for a closer look

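Gm26917 lay above DMSO in total RNA and below it in Z22 under both single compounds: the log2 differences were 3.79 with ADAR1i-124 and 2.23 with 5-Aza-CdR in total RNA, and -1.15 and -2.72 in Z22. Each value compares 1 library with 1 library, and the difference between total RNA and Z22 was not tested.

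The total RNA combination library, which enters no comparison, held 3036 CPM of CT010467.1, the minus-strand gene opposite the 18S copy, against at most 77.7 CPM in the other 12 libraries. In the same library Gm42418 had 10 counts, Gm26917 had 169, and AY036118 and Lars2 had 0. The strand setting of its counting was not given, so these counts are not read as levels.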

How the results depend on the processing

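The share of Gm42418 in Z22 DMSO, 34.9% of all counts, corresponds to 57.2% of the total without the 4 genes, 63.5% without the 20 most abundant genes and 59.9% of the protein-coding total. Its difference between Z22 5-Aza-CdR and Z22 DMSO was -1.72 and became -2.26, -2.24 and -2.18 with these totals, -2.69 with TMM factors and -2.79 with size factors, and was -1.72 with either pseudocount. The median of all genes in that comparison, 1.06, was 0.57, 0.60 and 0.65 with the 3 totals, 0.17 with TMM factors, 0.072 with size factors, 1.13 and 0.85 with pseudocounts of 0.1 and 2 CPM, 0.97 at a mean of at least 10 CPM and 0.58 with no filter. At a 4-fold line 3 of the 24 values against IgG (11 at 2-fold) and 7 of the 24 against DMSO (14 at 2-fold) were past it. The share of all genes past 4-fold was not computed, so the 4-fold counts are not read as a result about these genes. Under the other alternatives the counts at 2-fold were 11 or 12 and 14 or 16. Over 99 differences of the 3 genes with counts, 7 changed sign under at least 1 of 5 scalings, the largest of them being -0.26, for Gm26917 in IgG against total RNA with DMSO. The mean difference between Z22 and J2 paired over 4 treatments was positive for Gm42418, Gm26917 and Lars2 under the 5 scalings. It was -0.29 for Gm42418 without the DMSO pair (0.0048 with all), and the means stayed positive for the other 2 genes without any 1 pair. The alternatives to this paired mean, unlike the others here, were chosen after the data were seen. No replicate block could be fitted, since each condition has 1 library, and none could be left out as a replicate. J2 and Z22 against total RNA, each with 3 treatments in common, were not tested as pairs. The excess over total RNA is close to what chose the genes, and an exact test of 3 pairs cannot give a p under 0.25. No limit from depth is given for AY036118, since its counts cannot be told apart from those of CT010467.1. Whether 18S reads differ by treatment or by rRNA removal cannot be told apart with 1 library per condition.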
